A study of Mus musculus with 14 samples.

Results

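Liver and kidney of the same kind of mouse were compared on a normal diet, the control condition of a study of dietary salt. The 7 libraries used here, of 14 in the series, were every normal diet library of the raw gene count tables: 4 of liver and 3 of kidney. All of them came from male mice 12 weeks of age that carried the human angiotensinogen gene of the -6A haplotype as a transgene ("Hap -6A"), so the transgene was shared by both organs and there was no group without it. The other 7 libraries came from such mice on a high salt diet. Which promoter drives the transgene, whether the animals came from 1 line and whether each library was 1 animal are not given in the sources used here, and the human transgene was not analysed here. Nothing in the labels says that libraries of a group were separate animals, so the p-values measure the spread between these libraries, which may be technical.

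The hepatocyte, the main cell of the liver, secretes most proteins of blood plasma, makes bile acids, detoxifies ammonia through the urea cycle and oxidises drugs with cytochromes P450. The kidney filters plasma in the glomerulus and then reclaims or adds solutes along the nephron. The proximal tubule takes back glucose, amino acids, phosphate and filtered protein, the thick ascending limb takes up salt, and the distal and collecting segments adjust sodium, potassium, water and acid. Both organs make glucose, oxidise fatty acids and excrete organic ions, often with different members of 1 gene family.

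Values are CPM, counts per 1000000 counts of the library after TMM scaling, and a difference is log2 of liver over kidney, so that positive values are higher in liver. The liver libraries held 42531142, 37267778, 40782941 and 45939754 counts and the kidney libraries 20951908, 19593301 and 21761952. Liver and kidney were deposited in separate tables with separate column names, and organ and sequencing run cannot be told apart. Several libraries stood apart. Mitochondrially encoded genes took 2.30% and 2.06% of counts in liver libraries 1 and 2, 29.6% and 18.7% in liver libraries 3 and 4, and 31.5% to 41.2% in kidney. Liver library 4 alone had high Saa1, an acute phase protein, at 17653 CPM against 78.1 to 424 CPM in the others. Kidney library 1 ran low for short transcripts: the median log2 ratio to the other kidney libraries was -1.06 over 675 genes under 1500 exon bases and 0.40 over 2162 genes above 6000 exon bases. Bulk RNA cannot tell fewer cells of a type from less RNA per cell.

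The organs differed in most genes that could be tested, and a much smaller set could be placed within 2-fold. The 2 tables shared 17600 gene names, of which 15688 passed the filter on low counts. Of these, 9171 (58.5%) differed at an adjusted p under 0.05 in edgeR's quasi-likelihood test, 4699 (30.0%) higher in liver and 4472 (28.5%) higher in kidney. At least 8-fold differences were called for 910 genes (5.80%) higher in liver and 1429 genes (9.11%) higher in kidney. Counts of called genes in the lists and families below are to be read against these shares. The 95% interval of the difference lay within 2-fold for 1837 genes (11.7%), or 1085 without kidney library 2 and 1134 without kidney library 3. In simulated counts of 15688 genes with 200 changed, only 6114 unchanged genes had such an interval. The 11.7% is therefore not the share of genes that the organs hold at a like level. The 2339 genes called at least 8-fold were 933 with at least 10 counts required in every library. The liver share of the called genes, 51.2%, was 40.8% with upper quartile scaling and 33.6% with a GC content offset, which moved the median of all genes by -0.30 and -0.56. The direction of a difference smaller than these shifts depends on the scaling.

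More genes were abundant in liver and more were detected in kidney. Between 133 and 153 genes reached 1000 CPM in the liver libraries, against 42 to 45 in the kidney libraries, while 12000 to 12613 genes reached 1 CPM in liver and 13027 to 13436 in kidney. With mitochondrially encoded genes included, the 50 most abundant genes took 38.4% to 57.2% of counts in the liver libraries and 51.7% to 57.3% in the kidney libraries. Genes called 8-fold higher in liver, with those only the liver table lists, made up 48.4% of liver counts. The corresponding kidney genes made up 13.4% of kidney counts. The scatter of organ means shows both arms: across genes, Pearson's r of log CPM between the organ means was 0.647 and Spearman's rho 0.673, as a description over genes that are not independent replicates.

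**Figure D1:**
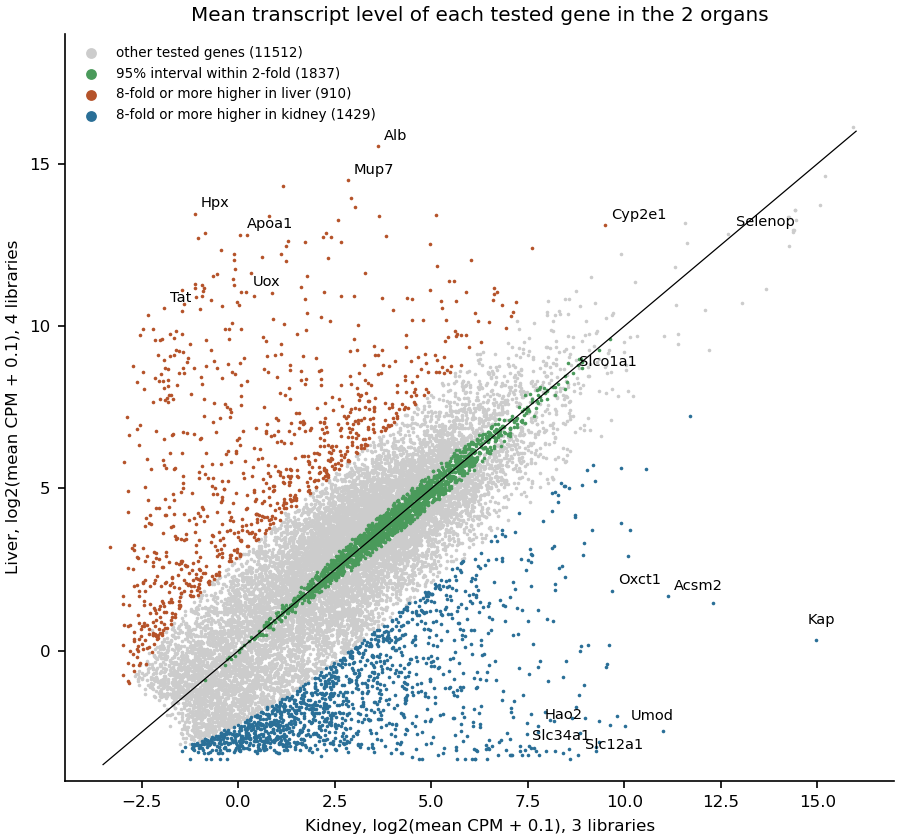
Mean CPM of each gene in kidney (x axis) and liver (y axis), both on log scales, with genes called at least 8-fold higher in either organ and genes within 2-fold in colours. The arm along the liver axis reaches higher, with Alb at a liver mean of 47977 ± 9125 CPM (SD, n = 4), and Kap leads the kidney arm at 32111 ± 14525 CPM (SD, n = 3).

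Some genes were listed in 1 table only. The liver table held 2060 genes that the kidney table does not list, 57 of them at 50 CPM or more. The kidney table held 2603 that the liver table does not list, 6 of them at 50 CPM or more. Every listed gene has at least 10 counts in its table, so an unlisted gene was taken to have fewer than 10 counts, and its difference is a lower bound. Of the 2060 liver genes, 1157 appear in the deposited normalised kidney table, where 1136 are at most 10 in every normal diet library and 21 exceed it.

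Plasma protein genes led the liver side. Alb (albumin, chr5:90460897-90476603 in mm10), the main carrier protein of plasma, read 54185, 47443, 55013 and 35269 CPM in liver libraries 1 to 4 and 2.08, 26.2 and 8.21 CPM in kidney libraries 1 to 3. No kidney value came near a liver value, and kidney library 2 was the highest of the kidney libraries (log2 difference 11.95, SE 1.52, edgeR adjusted p = 0.000104). Hpx, which binds free haem in plasma, read 8208, 8253, 4726 and 24031 CPM in liver and 0, 0.815 and 0.254 CPM in kidney, the highest level being in liver library 4 (log2 difference 14.96, SE 1.61, edgeR adjusted p = 3.68e-05). All 24 tested genes of the plasma protein list were higher in liver, each by at least 8-fold, against a background of 30.0% called higher in liver, and the other 3 were listed for liver only. Their median difference was 9.55, or 9.97 with the listed-once genes at their bound, against 0.07 over all tested genes. Trf, the plasma iron carrier, averaged 15711 ± 4515 CPM in liver and 7.45 ± 2.98 CPM in kidney and differed by 11.04. Saa1 and Saa2, acute phase proteins, were listed for liver only, and liver library 4 set their means. Saa2 read 19.6, 134, 51.7 and 14240.2 CPM in liver libraries 1 to 4. Hp, the haemoglobin scavenger, had the same high library, with 3389.8, 3496, 1629 and 21226 CPM in liver. Alb differed by 13.20 and Hpx by 16.38 without kidney library 2. Hpx differed by 14.27 without liver library 4.

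Clotting and complement genes were on the liver side too. Of 17 tested coagulation and fibrinolysis genes, 16 were higher in liver and 15 of these by at least 8-fold, and 4 more were listed for liver only. Fgb, a fibrinogen chain, read 2829, 2735, 2245 and 5929 CPM in liver and 0.540, 1.54 and 0.436 CPM in kidney, with no overlap and the highest kidney value again in library 2 (log2 difference 12.00, SE 0.94, edgeR adjusted p = 4.16e-06). Plg, the precursor of the clot-dissolving enzyme plasmin, averaged 1940.0 ± 169.6 CPM in liver, with 0.0386, 0.996 and 0.231 CPM in kidney libraries 1 to 3. Pros1, a cofactor of the anticoagulant protein C, differed by only 1.66. All 18 tested complement genes were higher in liver, 17 by at least 8-fold. C3, the central component, averaged 4422 ± 3018 CPM in liver and 4.95 ± 2.61 CPM in kidney, and Hc, complement component C5, 757 ± 254 CPM in liver, with 0, 0.300 and 0.0726 CPM in kidney libraries 1 to 3. Cfb, an activator of the alternative pathway, differed by 3.33. Fgb differed by 12.78 without kidney library 2.

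Lipoprotein genes followed the same side. All 16 tested apolipoprotein and lipoprotein assembly genes were higher in liver, 14 by at least 8-fold, with a median of 8.97. Apoa1, the main protein of high density lipoprotein, read 9527, 9958, 4328 and 5095 CPM in liver and 0.116, 2.15 and 0.545 CPM in kidney. The groups were apart by a wide margin (log2 difference 12.92, SE 1.32, edgeR adjusted p = 2.52e-05). Apoe, a ligand of lipoprotein receptors, kept a kidney level of 34.5 ± 14.6 CPM against 11025 ± 3539 CPM in liver. Apoa5, which promotes triglyceride clearance, was listed for liver only and was at least 9176-fold higher. Pltp, which transfers phospholipids between lipoproteins, differed least of the list, by 2.52. Apoa1 differed by 14.40 without kidney library 2.

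Bile acid genes were split between liver-limited and shared steps. Of 16 tested genes of bile acid synthesis and bile secretion, 14 were higher in liver and 8 of these by at least 8-fold, and 5 more were listed for liver only. Abcb11, the pump that exports bile salts into bile, was at least 2881-fold higher in liver. Slc27a5, which activates bile acids before conjugation, averaged 956 ± 149.7 CPM in liver and 0.118 ± 0.102 CPM in kidney. Slc10a1, the sodium-coupled bile acid uptake carrier of the hepatocyte, averaged 487 ± 118 CPM in liver and 0.546 ± 0.0777 CPM in kidney. Nr1h4, the bile acid receptor FXR, differed by 1.25 and Scp2, a peroxisomal sterol carrier, by 1.79, so neither passed 8-fold.

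Urea cycle genes differed by step. Cps1, which makes carbamoyl phosphate from ammonia in the first step, read 2711, 2879, 2985 and 1313 CPM in liver and 0, 2.10 and 0.363 CPM in kidney. Arg1, which releases urea in the last step, averaged 1586 ± 774 CPM in liver, with 0, 1.89 and 0.0363 CPM in kidney libraries 1 to 3. Ass1, the argininosuccinate synthase between them, did not pass the test: it read 1037, 1082, 662 and 448 CPM in liver and 375, 406 and 444 CPM in kidney, with liver above kidney in every library pair by a small gap (log2 difference 0.98, SE 0.39, edgeR adjusted p = 0.0514). Without liver library 4 it passed (1.17, edgeR adjusted p = 0.0177). Of 7 tested genes, 6 were higher in liver and 4 of these by at least 8-fold. In the kidney Ass1 is known to serve arginine synthesis. The mitochondrial ornithine carrier Slc25a15 differed by 1.80 and the aspartate and glutamate carrier Slc25a13 by 1.36.

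All 22 tested genes of the liver list of drug-metabolising enzymes were higher in liver, 21 by at least 8-fold, with a median of 9.43. Cyp3a11, the main mouse CYP3A enzyme, read 8542, 12804, 7939 and 411 CPM in liver and 0.154, 11.8 and 2.18 CPM in kidney, and liver library 4 was the lowest of the liver group (log2 difference 10.62, SE 1.89, edgeR adjusted p = 0.000864). Cyp1a2, which oxidises aromatic amines and caffeine, was listed for liver only, at 873, 941, 759 and 562 CPM, and was at least 6017-fold higher. Cyp2e1, the ethanol-oxidising enzyme, was abundant in both organs, with 10447, 10338, 7669 and 7079 CPM in liver and 946, 644 and 590.3 CPM in kidney. The groups did not overlap (log2 difference 3.61, SE 0.58, edgeR adjusted p = 0.000482). Ces1d, a carboxylesterase, was the only tested member short of 8-fold, at 2.10, and its organs overlapped. Without liver libraries 1 and 2, an alternative chosen after seeing the data, its call was lost (1.53, edgeR adjusted p = 0.0761). Cyp3a11 differed by 12.64 without kidney library 2.

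Major urinary proteins, small lipid carriers that mice excrete as scent signals, summed to 102629, 118904, 101242 and 76974 CPM in liver libraries 1 to 4 and 2.68, 127 and 19.6 CPM in kidney libraries 1 to 3. All 16 tested members were higher in liver by at least 8-fold and 5 were listed for liver only. The members are near-identical copies, so the split of reads among them is uncertain: Mup9 read 12659, 13631, 198 and 82.0 CPM in the liver libraries while the summed family changed far less. Among Serpina genes, a cluster that includes the alpha-1-antitrypsins, 11 of 12 tested were higher in liver and 10 more were listed for liver only. Serpina3k averaged 20459.9 ± 5049 CPM in liver, with 0.386, 4.93 and 1.12 CPM in kidney libraries 1 to 3. The exception was Serpina1f, with no count in any liver library and 105, 45.1 and 59.0 CPM in kidney, at least 3243-fold higher there taking 3 liver counts as the floor. It is the only Serpina member called higher in kidney. The kidney sum of the 50 most abundant 8-fold liver genes was 0.352% to 0.440% of its liver mean. For Mup20 the kidney libraries read 0.175, 32.1 and 5.01 CPM, library 2 again being the highest, and the part that carried-over RNA had in these low values was not tested.

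On the kidney side, proximal tubule uptake genes led. Kap, the kidney androgen regulated protein of the proximal tubule (chr6:133849851-133853763), read 0, 0, 4.54 and 0.0523 CPM in liver libraries 1 to 4 and 15405, 39172 and 41755 CPM in kidney libraries 1 to 3. Kidney library 1 was the lowest of its group and liver library 3 the only liver library above 1 CPM (log2 difference -14.79, SE 2.38, edgeR adjusted p = 0.000478). Slc34a1, the sodium phosphate cotransporter of the brush border, read 0, 0, 0.444 and 0.0523 CPM in liver and 802, 546 and 583 CPM in kidney. The organs were apart in every library (log2 difference -12.43, SE 1.02, edgeR adjusted p = 5.61e-06). Of 28 tested genes of the list, 27 were higher in kidney and 24 of these by at least 8-fold, against a background of 28.5% and 9.11%. The median was -10.92, or -10.22 with genes at or near 0 held at their bound. Kap had 2 counts and Slc34a1 2 counts in liver outside library 3, too few for a fold without it.

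Several uptake carriers gave almost no liver counts. Slc22a12, the urate exchanger, had 1 count over the 4 liver libraries and 323, 165 and 174 CPM in kidney, a pooled ratio of 30881 (counting interval 5542 to 1219790.0). Slc7a13, an acidic amino acid exchanger of the straight segment, had 2 liver counts and 647, 539 and 661 CPM in kidney, a ratio of 43167 (counting interval 11949 to 356456). Slc22a6, the organic anion transporter OAT1, had 2 liver counts and a ratio of 14724 (counting interval 4075 to 121588). Slc5a8, which takes up lactate and other monocarboxylates, had 3 liver counts and a ratio of 17637 (counting interval 6034 to 85527). These intervals cover counting error only. Lrp2, megalin, the receptor that retrieves filtered protein, averaged 0.656 ± 0.189 CPM in liver and 743 ± 366 CPM in kidney and differed by -10.15, with kidney library 1 at the top of 1164, 557 and 508 CPM. Aqp1, the constitutive water channel, differed by only -2.04. Slc3a2, the shared heavy chain of several amino acid exchangers, was within 2-fold with a difference of -0.03 (95% interval -0.59 to 0.53), or -1.05 and called with a GC content offset.

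Brush border peptidases were less uniform. Of 12 tested, 9 were higher in kidney and 8 of these by at least 8-fold, while Dpp4, dipeptidyl peptidase 4, was higher in liver by 1.13 (edgeR adjusted p = 0.00598). Mep1a, a meprin subunit, read 0, 0, 0.171 and 0 CPM in liver and 910.0, 490.4 and 538 CPM in kidney. Kidney held all of the signal above 1 CPM. Ggt1, which starts glutathione salvage, averaged 0.131 ± 0.0905 CPM in liver and 268 ± 109.8 CPM in kidney. Anpep, aminopeptidase N, did not pass the test at 0.87 and read 73.2, 61.8, 89.4 and 89.6 CPM in liver and 71.5, 28.0 and 29.3 CPM in kidney. Without kidney library 1 it passed (1.47, edgeR adjusted p = 0.000999). Cltrn, collectrin, a partner of amino acid transporters, read 1167, 2485 and 2503 CPM in kidney, the lowest again in library 1, and differed by -14.58.

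**Figure D2:**
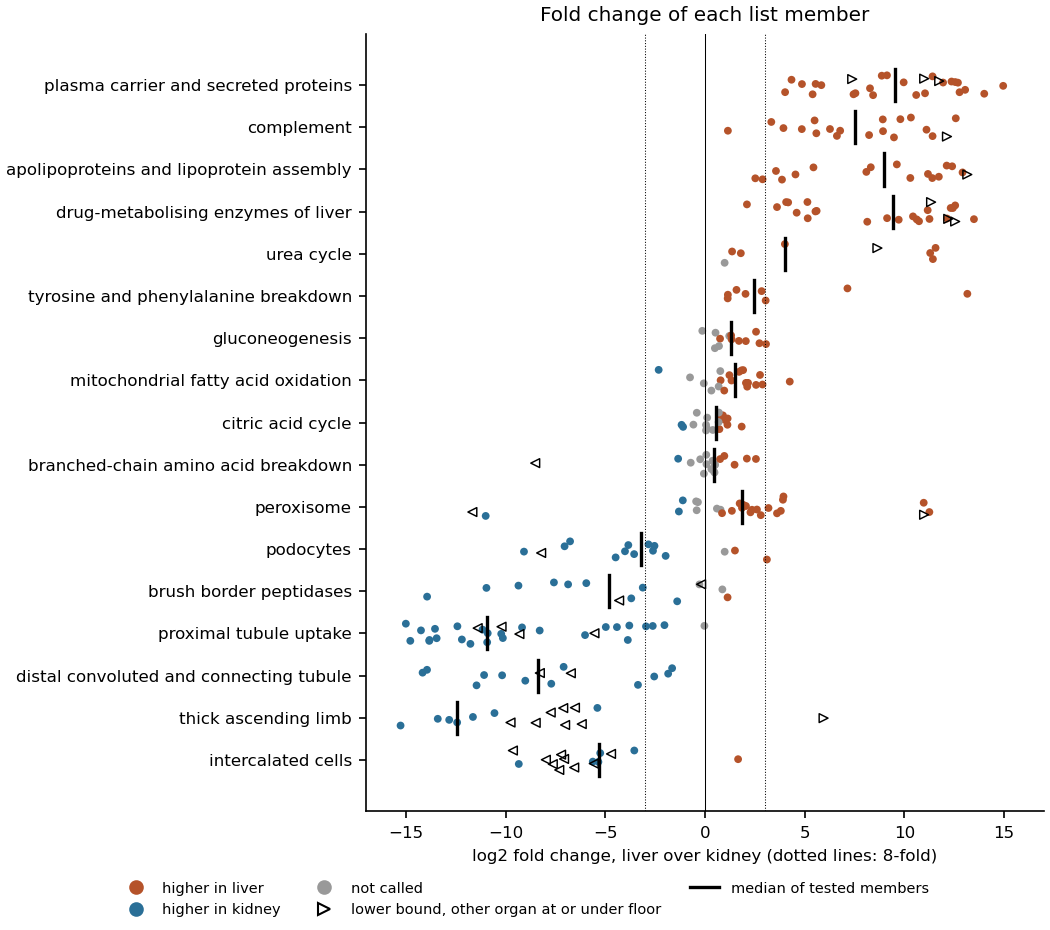
Log2 difference of each tested member (points) and the median (bar) for the liver function and kidney segment lists, positive being higher in liver. Tested members of the plasma protein, complement, apolipoprotein, drug-metabolising and urea cycle lists lie right of 0 and those of the proximal uptake, thick ascending limb and distal lists left of it, with medians of 9.43 for drug-metabolising enzymes and -10.92 for proximal tubule uptake.

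Genes of the thick ascending limb and distal segments lay on the kidney side, Cldn14 excepted. Umod, uromodulin, the most abundant protein of normal urine (chr7:119462711-119479283), read 0, 0, 0.376 and 0.0261 CPM in liver libraries 1 to 4 and 1409, 805 and 869 CPM in kidney libraries 1 to 3. No liver library reached 1 CPM (log2 difference -13.41, SE 1.07, edgeR adjusted p = 4.78e-06). Slc12a1, the cotransporter blocked by loop diuretics, had 1 liver count and 544, 364 and 439.8 CPM in kidney, a ratio of 63006 (counting interval 11308 to 2488670.0). All 7 tested members of the thick ascending limb list were higher in kidney by at least 8-fold and 7 more were listed for kidney only. The remaining member, Cldn14, was listed for liver only, at 7.14, 8.06, 2.56 and 14.4 CPM. It is a tight junction protein that lowers calcium reabsorption. All 12 tested genes of the distal convoluted and connecting tubule were higher in kidney, 9 by at least 8-fold. Klk1, tissue kallikrein, averaged 429 ± 123.4 CPM in kidney, with 0.104, 0.0597, 0.513 and 0.131 CPM in liver libraries 1 to 4 and S100g, the calcium-binding calbindin-D9k, 398 ± 191 CPM in kidney, with 0, 0.0895, 0.171 and 0.287 CPM in liver libraries 1 to 4. Kl, the FGF23 coreceptor klotho, had 2 liver counts and a ratio of 23755 (counting interval 6575 to 196159). Atp2b1, a calcium pump of most cell membranes, differed least, by -1.65. Umod had 1 count in liver outside library 3, too few for a fold without it.

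Collecting duct lists mixed kidney-limited and epithelial genes. For principal cells, 7 of 15 genes were listed for kidney only, 4 of 8 tested were higher in kidney and 2 were higher in liver. Aqp3, a basolateral water channel, was listed for kidney only and at least 422-fold higher there. Hsd11b2, which inactivates corticosterone next to the mineralocorticoid receptor, was at least 414-fold higher in kidney. The 2 liver-higher members were Krt8 (3.51) and Krt18 (5.27), the keratins of simple epithelia, which hepatocytes also make. For intercalated cells, 9 of 15 were listed for kidney only and 5 of 6 tested were higher in kidney. Atp6v0a4, a proton pump subunit of these cells, averaged 67.4 ± 18.01 CPM in kidney, with 5.14e-05, 0.0298, 0.0719 and 0.298 CPM in liver libraries 1 to 4. Rhbg, an ammonia channel, was higher in liver by 1.66, where it is known from hepatocytes around the central vein, but in the high salt libraries it was -0.41 (edgeR adjusted p = 0.123) and with a GC content offset 0.32.

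Glomerular lists were graded, read against 30.0% of all tested genes called higher in liver and 28.5% in kidney. Of 14 tested podocyte genes, 11 were higher in kidney and 7 of these by at least 8-fold. Col4a3 and Col4a4, the collagen chains of the glomerular basement membrane, differed by -7.05 and -9.09. Another 2 were higher in liver, 1 of them by at least 8-fold. Plce1, a phospholipase C, was the smaller of these at 1.501. Nphs1, nephrin of the slit diaphragm, did not pass the test and read 62.6, 63.3, 25.5 and 90.3 CPM in liver and 7.94, 39.7 and 43.9 CPM in kidney. Of 8 tested juxtaglomerular and mesangial genes, 6 were higher in kidney and Agtr1a, the angiotensin II receptor, was higher in liver by 0.86. Col4a3 differed by -6.37 and Col4a4 by -8.47 without kidney library 1. Col4a4 differed by -10.06 without liver library 4.

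The renin-angiotensin genes, the setting of the transgene, include a substrate and the enzyme that cleaves it. The mouse gene Agt, which encodes angiotensinogen, read 450.1, 387, 378 and 528 CPM in liver libraries 1 to 4 and 21, 13.3 and 10.6 CPM in kidney libraries 1 to 3. All liver values were above all kidney values (log2 difference 4.86, SE 0.38, edgeR adjusted p = 4.59e-06), a fold of 29.1. Ren1, renin, which cleaves angiotensinogen, read 0.0261, 0.0298, 0.171 and 15.2 CPM in liver libraries 1 to 4 and 15.9, 20.3 and 20.6 CPM in kidney libraries 1 to 3. Liver library 4 stood near the kidney level while the other 3 liver libraries were at 0.171 CPM or less, and the difference did not pass the test (log2 difference -2.28, SE 1.44, edgeR adjusted p = 0.197). Without liver library 4 it was -8.00 (edgeR adjusted p = 6.97e-06), and the high salt libraries passed the test at -3.92 (edgeR adjusted p = 0.0106).

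Pathways that both organs run were often split at single steps. Ketone bodies are made in liver and burned elsewhere. Oxct1, the transferase needed to use them, read 2.501, 3.67, 5.16 and 2.77 CPM in liver libraries 1 to 4 and 830.0, 792 and 833 CPM in kidney libraries 1 to 3. No Oxct1 value of liver reached 10 CPM (log2 difference -7.86, SE 0.41, edgeR adjusted p = 3.80e-07). Acat1, the reversible thiolase on both routes, did not pass the test at -0.32. Of 8 genes, 4 were higher in liver and 3 in kidney, too few to set apart from the 30.0% and 28.5% of all tested genes.

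Creatine is made in 2 steps. Gatm, which makes guanidinoacetate, read 5.18, 3.04, 4.34 and 3.81 CPM in liver and 334, 300.1 and 256 CPM in kidney. Gamt, which methylates it to creatine, read 172, 144, 106 and 101 CPM in liver and 3.09, 2.40 and 3.38 CPM in kidney. Each gene was high in 1 organ and low in the other: the difference was -6.18 for Gatm (SE 0.31, edgeR adjusted p = 3.41e-07) and 5.46 for Gamt (SE 0.34, edgeR adjusted p = 9.995e-07). Vitamin D is hydroxylated first in liver and then in kidney. Cyp2r1, a 25-hydroxylase, was higher in liver by 3.05. Cyp27b1, the 1-alpha-hydroxylase, was at low counts, with 0, 0, 0 and 0.104 CPM in liver and 0.811, 0.729 and 0.472 CPM in kidney, and differed by -4.39. Gc, the plasma carrier of vitamin D, and Vdr, its receptor, differed by 9.97 and -9.79. Cyp27b1 had no count in liver outside library 4, too few for a fold without it. Vdr differed by -9.11 without kidney library 1.

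**Figure D3:**
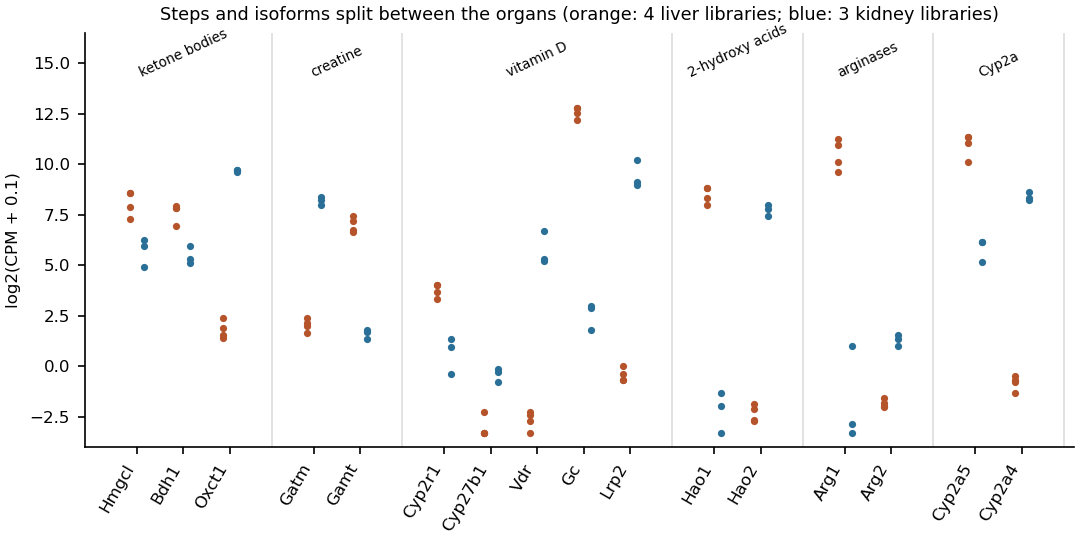
CPM per library, on a log scale, of genes at successive steps of ketone body, creatine, vitamin D, 2-hydroxy acid and arginine handling and of the Cyp2a pair, with liver and kidney libraries as separate points. Oxct1 is high in kidney at 830.0, 792 and 833 CPM, and Gamt and Gatm lie on opposite sides, Gamt at 172, 144, 106 and 101 CPM in liver and Gatm at 334, 300.1 and 256 CPM in kidney.

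Nitrogen handling was divided between paralogs. Gls2, the liver-type glutaminase, was listed for liver only, at 469, 479.7, 324 and 326 CPM, and was at least 3068-fold higher there. Glul, glutamine synthetase, was higher in liver by 1.70. Arg1 led in liver, and Arg2, the mitochondrial arginase, was higher in kidney (log2 difference -3.69), with 0.182, 0.149, 0.241 and 0.157 CPM in liver and 2.48, 1.90 and 2.81 CPM in kidney. Slc38a3, a glutamine carrier, was higher in liver by 7.81.

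The tyrosine, tryptophan, glycine and proline routes were mostly on the liver side, and branched-chain breakdown, given below, was not. All 8 tested genes of tyrosine and phenylalanine breakdown were higher in liver, 3 by at least 8-fold, led by Tat, the tyrosine aminotransferase, at 1495 ± 523 CPM in liver, with 0, 0.343 and 0.145 CPM in kidney libraries 1 to 3. Of 10 genes from tryptophan to NAD, 9 were higher in liver, and Acmsd, which diverts the route from NAD, was higher in kidney (log2 difference -1.24), a call that the replicate block ended (-0.97, edgeR adjusted p = 0.0739). Tdo2, the first enzyme, averaged 1618 ± 606 CPM in liver, with 0.232, 1.85 and 0.654 CPM in kidney libraries 1 to 3. Of 22 tested genes of glycine, serine and one-carbon metabolism, 16 were higher in liver and 3 in kidney. That kidney share was below the 28.5% of all tested genes. The kidney members included the serine synthesis enzymes Phgdh (-3.44) and Psat1 (-4.25), as against Mat1a (12.32), Gnmt (7.94) and Bhmt (8.18) of the liver methionine cycle. Mat2a, the methionine adenosyltransferase of most other tissues, was the third kidney member at -1.56. All 5 tested genes of proline and hydroxyproline breakdown were higher in liver. Mat1a differed by 14.21 and Bhmt by 8.93 without kidney library 2.

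Peroxisomal oxidases divided by substrate. Hao1, glycolate oxidase, read 451, 452, 316 and 251 CPM in liver libraries 1 to 4 and 0.154, 0.300 and 0 CPM in kidney libraries 1 to 3. Hao2, the oxidase of longer 2-hydroxy acids, read 0.130, 0.0597, 0.171 and 0.0523 CPM in liver libraries 1 to 4 and 172, 255 and 223 CPM in kidney libraries 1 to 3. For each gene the organs did not overlap (log2 difference 11.26, SE 0.78, edgeR adjusted p = 1.95e-06 for Hao1, and -11.01, SE 0.43, edgeR adjusted p = 1.47e-07 for Hao2). Dao, D-amino acid oxidase, had no count in liver and 92.6, 59.99 and 58.9 CPM in kidney, at least 3277-fold higher by the 3-count floor. Uox, urate oxidase, was on the liver side at 2112 ± 538 CPM in liver, with 0.0386, 2.70 and 0.436 CPM in kidney libraries 1 to 3, and Agxt, which detoxifies glyoxylate, was listed for liver only and at least 2041-fold higher. Of 27 tested peroxisome genes, 18 were higher in liver and 4 in kidney, against 30.0% and 28.5% of all tested genes. The kidney share of the list was thus below the background. Hao1 differed by 12.19 without kidney library 2. Hao1 differed by 10.65 without kidney library 3.

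Fuel pathways leaned to liver without a full split, read against 30.0% of all tested genes called higher in liver and 28.5% in kidney. Of 13 gluconeogenesis genes, 8 were higher in liver and none in kidney. Pck1, phosphoenolpyruvate carboxykinase, read 1070.3, 1949.8, 1803 and 2109.8 CPM in liver and 376, 206 and 201 CPM in kidney, a difference of 2.73. Of 20 genes of mitochondrial fatty acid oxidation, 14 were higher in liver and Acsm3, a medium-chain acyl-CoA synthetase, in kidney. Acaa2, the last thiolase, differed by 4.25. Of 7 fructose genes, 4 were higher in liver and 1, the fructose carrier Slc2a5, in kidney (log2 difference -1.74). Of 18 cholesterol synthesis genes, 13 were higher in liver and 9 of these by at least 8-fold. Fdps, farnesyl diphosphate synthase, differed by 5.86.

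Paralog pairs showed such divisions within each library. For 31 pairs of enzymes, carriers, channels or factors with a known liver-type member, the log2 ratio of the liver-type member to its partner was taken within each library, with 0.5 CPM added to each. The pairs were chosen for known isoform use and with results of these data in view, so their count does not measure how often paralogs diverge. In 30 pairs every liver ratio lay above every kidney ratio. Each gave an exact permutation p = 0.0286, 2-sided, the smallest that 4 against 3 allows. The choice of pairs made this outcome likely, so these p-values are not evidence that paralogs diverge. For single genes, which are not ratios, all liver values lay above kidney in 30.9% of those tested. In 22 pairs the liver-type member was higher in liver and its partner higher in kidney. Per exon length, the leading member differed between the organs in 22 pairs. The liver-type member led in both organs in 6 pairs and its partner in both in 3. This lead was read from organ means, and some of the 22 pairs were close to even in 1 organ. In kidney, Pygl made up 49.0% of its pair with Pygb per exon length. In liver, the log2 CPM ratio of Sult1a1 to Sult1d1 ran from -1.38 to 1.46 over the libraries.

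Lactate dehydrogenase is one such pair. The log2 ratio of Ldha to Ldhb was 7.98, 7.69, 7.31 and 8.72 in liver and -1.14, -1.77 and -1.65 in kidney. Ldha led in liver by 7.93 ± 0.60 and Ldhb in kidney, at -1.52 ± 0.33 (SD, n = 4 and n = 3). Pyruvate kinase passed from Pklr (3.76 ± 0.90) to Pkm (-2.68 ± 0.25). Methionine adenosyltransferase passed from Mat1a (4.83 ± 0.35) to Mat2a (-8.06 ± 0.76). Fabp1 and Fabp3, intracellular fatty acid carriers, differed by 16.503 in log2 ratio between the organs, the widest of the 31 pairs. Another pair moved only in degree: Slc2a2 over Slc2a1, the glucose carriers, was 4.28 ± 0.37 in liver and 2.53 ± 0.16 in kidney. The overlapping pair was Slc38a4 over Slc38a3, with -0.74, -0.54, -0.56 and -0.70 in liver and -2.46, -0.48 and -1.36 in kidney (exact permutation p = 0.143, 2-sided).

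**Figure D4:**
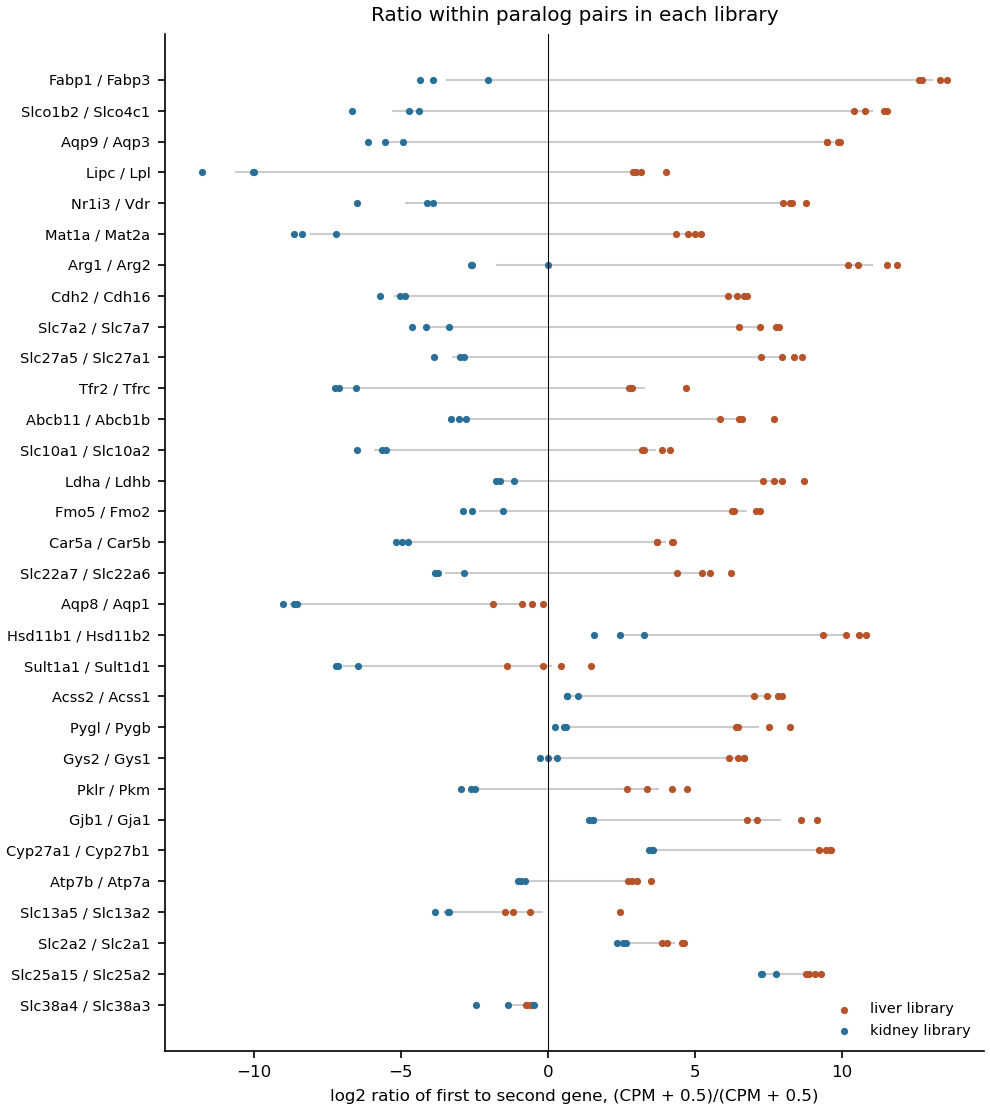
Log2 ratio of the liver-type member to its partner in each library for the 31 pairs, liver and kidney libraries as separate points, 0 marking equal CPM. Liver points lie right of kidney points in 30 pairs, and Slc38a4 with Slc38a3 is the pair that overlaps.

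Solute carrier families held members higher in either organ, read against 30.0% of all tested genes called higher in liver and 28.5% in kidney. Of 8 tested members of Slc5, the sodium-glucose cotransporter family, 7 were higher in kidney, each by at least 8-fold. Slc5a12, a lactate carrier, had no liver count and was at least 2724-fold higher in kidney. Of 19 tested Slc22 organic ion transporters, 12 were higher in kidney and 5 in liver, the liver share being near that background. Slc22a2, which takes up organic cations, differed by -11.48. Of 8 tested Slco genes, 4 were higher in liver and 3 in kidney, too few to set apart from that background. Slco1b2 was at 1105 ± 391 CPM in liver, with 0.463, 1.72 and 0.218 CPM in kidney libraries 1 to 3, and Slco4c1 was listed for kidney only. Slco1a1 was within 2-fold, with 492, 462, 386 and 177 CPM in liver and 406, 399 and 408 CPM in kidney. In the high salt libraries Slco1a1 was called (log2 difference -0.72, edgeR adjusted p = 0.0359). Aqp9, the glycerol channel of hepatocytes, averaged 418 ± 68.0 CPM in liver, with 0.0772, 0.386 and 0.0363 CPM in kidney libraries 1 to 3. Of 11 tested claudins, the seals and pores of tight junctions, 7 were higher in kidney and 1 in liver. Slc22a2 had 1 count in liver outside library 3, too few for a fold without it.

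Detoxifying families held members on both sides. Of 31 tested Cyp1 to Cyp3 genes, 21 were higher in liver and 7 in kidney, against 30.0% and 28.5% of all tested genes, so the kidney share was below the background, and 14 more were listed for liver only and 1 for kidney only. Of 19 UDP-glucuronosyltransferases, 10 were higher in liver and 7 in kidney: Ugt2b5 differed by 9.14 and Ugt2b38 by -4.27, with 42.0, 122, 15.6 and 18.2 CPM in liver and 1097, 1075 and 697 CPM in kidney. Ugt1a members share their last exons, so the split of reads among them is uncertain. Of 13 tested Cyp4 genes, 8 were higher in liver and 2 in kidney, among them Cyp4b1, an enzyme that activates some toxins, with 4.56, 7.4, 12.2 and 5.70 CPM in liver and 1103, 1049.7 and 1130.3 CPM in kidney. Of 16 glutathione transferases, 13 were higher in liver, led by Gstp1 at 2222 ± 579 CPM in liver and 31.3 ± 5.11 CPM in kidney. Sulfotransferases were divided between Sult2a8 (9.39) and Sult1d1 (-2.39, or -0.83 and not called with a GC content offset). Sult2a8 differed by 12.07 without kidney library 2. Ugt2b38 differed by -5.24 without liver library 2.

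Cyp2a5 and Cyp2a4, near-identical paralogs, were higher in opposite organs, and both were chosen after their values were seen. Cyp2a5, the coumarin hydroxylase, read 2579, 2604, 2132 and 1091 CPM in liver libraries 1 to 4 and 35.7, 70.5 and 70.9 CPM in kidney libraries 1 to 3. Cyp2a4, a testosterone 15-alpha-hydroxylase, read 0.523, 0.472, 0.616 and 0.303 CPM in liver libraries 1 to 4 and 303, 321 and 399 CPM in kidney libraries 1 to 3. Each was low in all libraries of the opposite organ (log2 difference 5.15, SE 0.56, edgeR adjusted p = 3.95e-05 for Cyp2a5, and -9.46, SE 0.37, edgeR adjusted p = 1.37e-07 for Cyp2a4). The genes are near-identical, so reads can be assigned to the wrong copy, and how many were was not tested. On high salt the kidney libraries read 568, 356 and 828 CPM for Cyp2a4 and 340.0, 113 and 377 CPM for Cyp2a5. The liver libraries read 0.465, 0.324, 1.62 and 327 CPM for Cyp2a4, so 1 liver library was at the kidney level, and the Cyp2a4 difference there, -2.83, did not pass the test (edgeR adjusted p = 0.178).

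The 250 bases before the RefSeq start of these genes are shown because the Cyp2a promoters are almost the same while the organs' levels are not, together with those of Alb and Umod, secreted products of liver and of kidney, and of the oxidases Hao1 and Hao2. All are from RefSeq on GRCm38.p6, read 5′ to 3′ on the gene's strand. Capitals mark GTTAAT or its reverse complement ATTAAC, 1 of the 4 motifs searched. The intervals are chr5:90460620-90460869 on the plus strand for Alb, chr7:119479263-119479512 on the minus strand for Umod, chr7:26835089-26835338 and chr7:26306942-26307191 on the plus strand for Cyp2a5 and Cyp2a4, chr2:134554353-134554602 on the minus strand for Hao1 and chr3:98893231-98893480 on the minus strand for Hao2.
Alb: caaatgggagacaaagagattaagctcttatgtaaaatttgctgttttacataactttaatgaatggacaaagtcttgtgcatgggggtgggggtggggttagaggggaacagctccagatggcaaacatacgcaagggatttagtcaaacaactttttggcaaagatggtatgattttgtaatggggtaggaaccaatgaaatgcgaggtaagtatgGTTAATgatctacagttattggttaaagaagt
Umod: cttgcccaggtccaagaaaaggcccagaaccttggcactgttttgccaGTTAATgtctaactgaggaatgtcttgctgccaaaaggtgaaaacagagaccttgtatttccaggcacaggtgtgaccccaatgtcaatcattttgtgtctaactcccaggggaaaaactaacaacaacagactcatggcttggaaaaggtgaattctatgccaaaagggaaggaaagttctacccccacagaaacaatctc
Cyp2a5: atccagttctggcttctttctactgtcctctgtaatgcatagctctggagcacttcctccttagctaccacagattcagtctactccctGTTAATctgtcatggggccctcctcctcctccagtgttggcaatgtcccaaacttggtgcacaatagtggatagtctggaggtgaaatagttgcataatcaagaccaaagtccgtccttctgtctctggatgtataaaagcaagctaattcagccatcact
Cyp2a4: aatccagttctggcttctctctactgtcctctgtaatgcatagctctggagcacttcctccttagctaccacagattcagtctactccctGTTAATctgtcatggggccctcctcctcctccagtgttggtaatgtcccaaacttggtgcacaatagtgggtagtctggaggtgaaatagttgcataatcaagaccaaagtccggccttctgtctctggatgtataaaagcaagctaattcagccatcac
Hao1: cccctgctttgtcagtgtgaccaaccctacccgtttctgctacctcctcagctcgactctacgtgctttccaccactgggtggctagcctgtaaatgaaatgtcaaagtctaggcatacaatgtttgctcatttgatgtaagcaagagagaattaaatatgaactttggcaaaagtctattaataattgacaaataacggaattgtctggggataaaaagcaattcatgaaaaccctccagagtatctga
Hao2: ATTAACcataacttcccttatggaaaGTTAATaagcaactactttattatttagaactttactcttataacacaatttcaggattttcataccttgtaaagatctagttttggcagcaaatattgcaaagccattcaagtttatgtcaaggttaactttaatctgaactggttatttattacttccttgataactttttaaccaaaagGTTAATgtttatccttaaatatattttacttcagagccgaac

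Aligned with a shift of 1 base, the Cyp2a4 and Cyp2a5 sequences were identical at 245 of 249 bases (98.4%), the marked site included. The site begins 32 bases before the start in Alb, 202 in Umod, 161 in Cyp2a5 and 160 in Cyp2a4. The start is the outermost RefSeq start of each gene, which can differ from the gene positions given above. The Alb window stops short of the gene position given for Alb, and the Umod window reaches into that given for Umod. Hao2 has 3 matches and Hao1 none in this window. Over genes at 10 CPM or more, GTTAAT on either strand was found in 11.2% of 501 promoters of 8-fold liver genes and 10.8% of 436 promoters of 8-fold kidney genes. It was found in 4.20% of 999 promoters of genes within 2-fold and 6.54% of all 27025 promoters of the table. The other motifs, all searched on both strands with matches allowed to overlap, were CAAAGTCCA, a core of the HNF4 site, the CCAAT box and the TATA box TATAAA. CAAAGTCCA was found in 0.599%, 0.459%, 0.200% and 0.377% of the same groups. CCAAT was found in 40.7%, 31.4%, 32.3% and 34.5%, and TATAAA in 61 of 501, 39 of 436, 50 of 999 and 3507 of 27025. A match is a description of the letters and not evidence of a bound factor. Of the 22263 genes in either table, 13596 matched a promoter.

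Transcription factors were partly shared and partly organ-limited. Hnf4a, a master regulator of both hepatocytes and proximal tubule, read 412, 402, 578 and 546 CPM in liver and 367, 175 and 167 CPM in kidney, a difference of 1.03 (edgeR adjusted p = 0.0349), with kidney library 1 highest in kidney. That call was lost without liver library 1, 3 or 4 or kidney library 2 or 3, at adjusted p of 0.0505 to 0.141, and with a GC content offset the difference was 0.01. Cebpa, a factor of hepatocyte metabolism, was higher in liver by 5.15, as were the nuclear receptors Nr5a2 (7.03) and Nr1i3 (6.91). Foxa1 had no kidney count and was at least 230.4-fold higher in liver by the 3-count floor, or at least 151-fold without liver library 3, the highest at 18.3 CPM. Pax8, a factor of nephron formation, was higher in kidney (log2 difference -8.15). Of 45 factors on the list, 26 were tested, 12 were listed for kidney only and 6 for liver only. Of the tested factors 11 were higher in each organ, against 30.0% and 28.5% of all tested genes in liver and kidney.

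Hox genes, which set position along the body axis, marked the kidney as a group. All 10 tested were higher in kidney, 7 by at least 8-fold, and 20 of 31 were listed for kidney only. Their summed level was 1.02, 0.985, 2.83 and 1.49 CPM in liver libraries 1 to 4 and 252, 213 and 228 CPM in kidney libraries 1 to 3. No liver sum reached 3 CPM. Hoxd8, listed for kidney only, read 58.0, 62.0 and 72.9 CPM and was at least 897-fold higher. Hoxa10 read 31.1, 38.02 and 36.2 CPM in kidney and was at least 489.7-fold higher. Hoxb4 was the closest to liver among those named, at -3.71, and Hoxb7 differed by -8.10. Both tested Irx genes, homeobox factors of the nephron, were higher in kidney, Irx1 with a difference of -5.40 and Irx3 with -7.79. Irx3 differed by -8.58 without liver library 3.

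**Figure D5:**
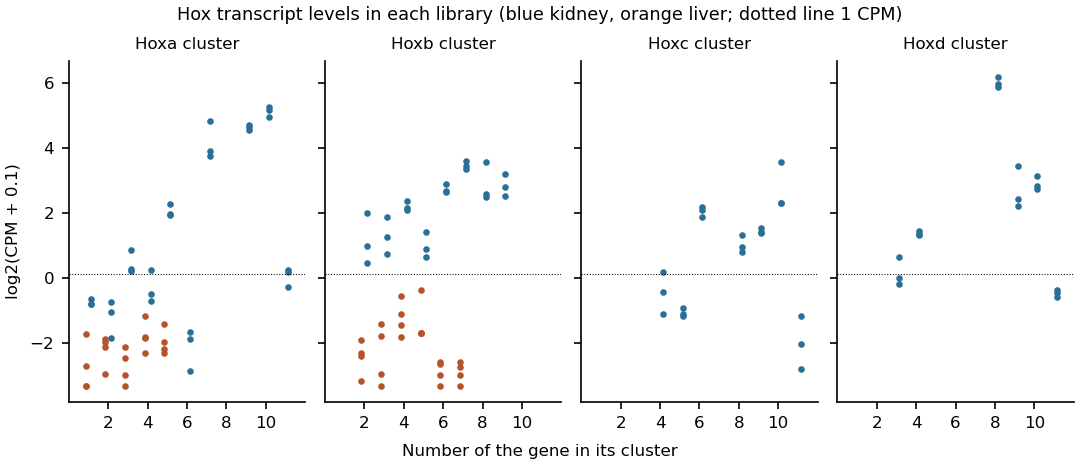
CPM of the listed Hox genes in each liver and kidney library, on a log scale, ordered by cluster. The kidney libraries sum to between 213 and 252 CPM, and the liver libraries to between 0.985 and 2.83 CPM.

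The kidney table also held large differences outside these groups. Fut9, a fucosyltransferase that makes the Lewis X sugar (chr4:25609332-25800245), had no liver count and read 351, 390.0 and 416 CPM in kidney, at least 17929.9-fold higher by the 3-count floor. Folh1, glutamate carboxypeptidase II of the proximal tubule, was listed for kidney only and read 55.5, 135 and 101 CPM. Lpl, lipoprotein lipase, read 15.8, 17.7, 9.05 and 18.1 CPM in liver and 1735, 514 and 635 CPM in kidney, with kidney library 1 the highest, and its liver paralog Lipc had 3 kidney counts, a liver to kidney ratio of 3722 (counting interval 1273 to 18048). Acsm2, which activates medium-chain fatty and benzoic acids, averaged 3.12 ± 0.548 CPM in liver and 2234 ± 659 CPM in kidney. Hamp, the iron hormone hepcidin, lay at the opposite end, at 1291 ± 734 CPM in liver, with 0.0386, 0.215 and 0.0363 CPM in kidney libraries 1 to 3.

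Some abundant genes were at a like level in both organs. Of the 168 nuclear genes at 200 CPM or more in both organs, 28 had an interval within 2-fold and 40 were called different. The smallest differences were those of Atp5j and Atp5o, subunits of ATP synthase, of Esd, an esterase, and of 2 processed copies, Rpl19-ps11 and Gm10275, whose reads may come from their parent genes. With a GC content offset Rpl19-ps11 was called (-1.20, edgeR adjusted p = 0.0456). The interval of Gm10275 (-1.03 to 1.03) reached just past 2-fold. Esd read 327, 332, 210.4 and 158 CPM in liver and 161, 282 and 321 CPM in kidney (95% interval -0.80 to 0.83). Atp5j read 272, 289, 221 and 200.2 CPM in liver and 144, 286 and 308 CPM in kidney (95% interval -0.73 to 0.73). Kidney library 1 was the lowest kidney library for each. Hspa8, a constitutive chaperone, and Slc25a5, the ADP and ATP carrier, also lay within 2-fold, with 375, 402, 273 and 202 CPM in liver and 358, 354 and 376 CPM in kidney for Slc25a5, though Slc25a5 was called in the high salt libraries (log2 difference -0.52, edgeR adjusted p = 0.0148). Selenop, the plasma selenium carrier made by both organs, read 9551, 9507, 5999 and 4248 CPM in liver and 3263, 8644 and 7854 CPM in kidney: the difference was 0.15, but its interval of -1.20 to 1.503 reached beyond 2-fold.

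Core energy lists held members of shared level beside members that differed. Of 17 tested genes of branched-chain amino acid breakdown, 7 were within 2-fold, 5 were higher in liver, 1 was higher in kidney and 11 did not pass the test. Aldh6a1 was the member higher in kidney, at -1.35. Of 18 citric acid cycle genes, 5 were within 2-fold, 7 higher in liver and 2 in kidney. Fh1, fumarase, differed by 1.84 and Dld by -1.18. Of 36 complex I subunits, 11 were within 2-fold, 8 higher in liver and 2 in kidney. Of 19 tested V-ATPase subunits, 6 were within 2-fold and 7 higher in kidney, Atp6v1a among them at -2.88. Over all tested genes, 11.7% were within 2-fold, 30.0% were higher in liver and 28.5% were higher in kidney. Complex I subunits were below both of the called shares. They summed to 2250, 5131 and 5227 CPM in kidney libraries 1 to 3, so kidney library 1 was low for them. A member that did not pass the test is therefore not shown to be alike in the organs. Of 20 core proteasome genes, 13 were higher in liver and 1 in kidney. Their kidney sums were 792, 1287 and 1373 CPM, again lowest in library 1. What part library 1 had in these counts was not tested.

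Ribosomal protein genes were lowest in kidney library 1 as a sum. They summed to 9869.8, 10467, 6965 and 8058 CPM in liver libraries 1 to 4 and 3899, 12797 and 12584 CPM in kidney libraries 1 to 3. These are short transcripts of the class that ran low in it. Of 80 tested, 55 did not pass the test, 19 were higher in kidney and 6 in liver. Both called shares were below the 28.5% and 30.0% of all tested genes. Rps24 read 269, 296, 222 and 242 CPM in liver and 335, 1651 and 1305 CPM in kidney. How far transcript length set these values was not tested.

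Markers of other cell types bounded what each sample held. Their counts stand beside 30.0% of all tested genes called higher in liver and 28.5% in kidney. Hepatocyte markers summed to 80402 to 107996 CPM in liver and 1088 to 1408 CPM in kidney, most of the latter from Ass1 and Cyp2e1, which kidney expresses itself. Of 4 tested Kupffer cell markers, 2 were higher in liver and 5 more were listed for liver only, among them Clec4f, the receptor that defines these macrophages, at 44.3, 44.6, 67.5 and 77.8 CPM. Timd4 differed by 5.22. Of 6 tested markers of liver sinusoid endothelium, 5 were higher in liver by at least 8-fold, with Stab1 at 3.16 and Oit3 at 7.33. Bile duct markers went to the kidney side in 6 of 8, while 1 was higher in liver and 1 did not pass the test. Tubule epithelium is known to express several of them: Epcam differed by -5.00 and Krt7 by -4.56. All 8 smooth muscle and fibroblast markers were higher in kidney, 3 of them by at least 8-fold. Of 8 kidney endothelium markers, 5 were higher in kidney, 2 of these by at least 8-fold, with Plat at -6.77 and Emcn at -4.87. Another 1 was higher in liver, 2 did not pass the test, and the median was -1.40. Oit3 had 1 count in kidney outside library 3, too few for a fold without it. Plat differed by -7.72 without liver library 2. Timd4 had 3 counts in kidney outside library 1, too few for a fold without it.

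Markers of neighbouring tissues were also summed. Adrenal cortex markers summed to 1.48, 1.34, 3.79 and 9.46 CPM in liver libraries 1 to 4 and 2.24, 1.42 and 1.02 CPM in kidney libraries 1 to 3, the highest in liver library 4, which also had the highest Ren1 of the liver libraries. Of the 8 markers, 4 were listed for liver only and 3 were absent from both tables. Adipocyte markers summed to 29.1 to 92.4 CPM in kidney and 6.46 to 13.1 CPM in liver, and 5 of 8 were listed for kidney only. Urothelium markers stayed at or below 1.09 CPM. Exocrine pancreas markers summed to 43.8, 55.5, 47.1 and 40.9 CPM in liver libraries 1 to 4 and 22.6, 42.0 and 47.5 CPM in kidney libraries 1 to 3, with 6 of 9 absent from both tables and the 1 tested member within 2-fold. Of 11 tested immune markers, 2 were higher in each organ and 7 did not pass the test. Both called shares were below the 30.0% higher in liver and 28.5% higher in kidney of all tested genes. The median difference of the immune markers was 0.96. They ranged from -1.86, for Ptprc, carried by all leukocytes, to 2.52. Whether these cells had a part in any difference was not tested.

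The high salt libraries gave the same comparison in other samples. Of the 2339 genes called 8-fold on the normal diet, 2312 were tested there, 2308 had the same direction and 2286 passed the test in that direction. A fit of all 14 libraries tested in edgeR whether the organ difference changed with diet. No gene of 16633 passed at an edgeR adjusted p under 0.05. There were 1681 at an unadjusted edgeR p under 0.05, and the smallest adjusted p was 0.0734. A missed threshold with so few libraries does not show that no difference changed. No other tool was run on the change with diet. Of the genes named above that did not pass the test on the normal diet, Acat1 (-0.85, edgeR adjusted p = 0.00341), Anpep (0.88, edgeR adjusted p = 0.00138), Nphs1 (1.73, edgeR adjusted p = 0.00136) and Slc2a1 (-1.34, edgeR adjusted p = 0.000397) passed it in the high salt libraries, besides Ren1, Slc25a5 and Slco1a1, whose values there are given above.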

How the data were processed

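RNA was extracted with the RNeasy mini plus kit and 1 µg of total RNA was made into libraries with the SMARTER mRNA-Seq kit, per the labels' protocols. The authors deposited expected counts, estimated for each gene by the E/M method of Partek, per the file headers. Partek 7.0, STAR 2.5.3a, DESeq2 and the mm10 build are named in the submitters' processing notes, without their roles. The deposited normalised kidney signal, of a method not given in the sources used here, was used only to look up genes that the raw kidney table does not list.

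Counts were rounded to whole numbers, the tables joined by gene symbol, and low counts removed with filterByExpr by organ. TMM scaling and the quasi-likelihood test of edgeR 4.0.16 (limma 3.58.1, R 4.3.3) compared organs, with Benjamini-Hochberg adjustment over 15688 genes. Within 2-fold means a 95% interval inside a log2 difference of 1 either way. A gene at 0 in an organ was given 3 counts over its libraries as a floor. CPM rest on 19593301 to 45939754 counts a library.

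Tested on simulated counts for the liver and kidney comparison over 15688 genes, with 200 changed by a log2 of 2, the test recovered 138 with 9 false calls, and 0 changed genes fell within 2-fold. Members and gene lists were chosen with earlier results of these data known. Genes are named by rule: the largest differences at 50 CPM or more, the most abundant genes of each organ, list and family, the opposite-direction members of lists, all paralog pairs, the 5 smallest differences at 200 CPM or more, the leading genes listed once, and Agt and Ren1. Cyp2a4, Cyp2a5, Cldn14, Hoxa10, Hoxb7, Hspa8, Slc3a2 and Slc5a12 were added after their values were seen. Some genes and paralog pairs that the rule names are not reported here. Alternatives were other scalings and filters, DESeq2 1.42.0, joining the tables with 0 for unlisted genes, removal of mitochondrial genes, thinning, a GC content offset, a replicate block, the high salt libraries, and leaving out libraries. Promoters came from RefSeq, GRCm38.p6, gene positions from the deposited count tables, and exon lengths and GC content from GENCODE M21.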

Additional observations from a re-analysis of the deposited data

Results flagged for a closer look

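Among 4 liver libraries, 1 library lay far from the other 3 for 23 of 155 genes named here. Chance flags about 1 in 20 groups of independent values, but 6 of the 23 had no count in the other 3 libraries, which sets the flag by itself, and genes of 1 library are not independent. In 10 of the 23 library 4 was high. Hp read 21226 CPM, Saa1 17653 CPM, Saa2 14240 CPM, Fgb 5929 CPM and Cfb 2229 CPM there, against at most 3496 CPM for Hp, 424 CPM for Saa1, 134 CPM for Saa2, 2829 CPM for Fgb and 1175 CPM for Cfb in the other liver libraries. These 5 encode plasma proteins that rise in the acute phase. Col18a1 at 504 CPM, Ren1 at 15.2 CPM, Nr5a2 at 51.5 CPM, Krt7 at 0.784 CPM and Cyp27b1 at 0.105 CPM were also highest in library 4. Cps1 at 1313 CPM and Atp6v1a at 25.2 CPM were lowest in it.

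Liver library 3 was the high one for 9 genes of kidney tubules: Kap at 4.54 CPM, Klk1 at 0.513 CPM, Slc34a1 at 0.444 CPM, Umod at 0.376 CPM, Mep1a at 0.171 CPM, Slc22a6 at 0.0683 CPM, Slc7a13 at 0.0683 CPM, and Slc12a1 and Slc22a12, which with 1 count each stood at 0.0342 CPM. Aqp1 at 89.6 CPM and Foxa1 at 18.3 CPM were also highest in library 3. Whether RNA of another sample had a part in these values was not tested.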

How the results depend on the processing

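The number of called genes, 9171, lay between 6957 and 11466 over 20 alternatives and between 7637 and 9401 with 1 library left out. The number called at least 8-fold, 2339, was 933 with at least 10 counts required in every library, a filter that removes genes near 0 in 1 organ. Leaving out 1 library at a time gave 2265 to 2489. The number within 2-fold, 1837, was 992 with the replicate block, 3840 in the high salt libraries, and 1085 to 1734 with 1 library left out, the lowest without kidney library 2 and 1134 without kidney library 3. The 2339 genes called 8-fold kept their direction wherever tested, except 4 of 2312 in the high salt libraries. Paralog pairs without overlap numbered 30 or 31. The deviations of same-numbered liver and kidney libraries had r of -0.22, 0.19 and -0.17. Liver libraries 1 and 2 had like r with each kidney library, and libraries 3 and 4 had the opposite sign. These r therefore cannot tell whether same-numbered libraries shared an animal. The main test did not treat the numbers as pairs. The block gave 7822 calls, and Acmsd (-0.97, adjusted p = 0.0739) and Hnf4a lost theirs under it, while Ren1 passed (-8.04). Rhbg reversed to -0.41 in the high salt libraries. Of 75 list medians, those for ABC transporters, aquaporins, ATP synthase, branched-chain amino acids, principal cells, complex I, immune cells, keratins, ketone bodies, transcription factors, red cells, Slc2, Slc6, Slc7, Slc12, Slc25 and vitamin D changed sign under at least 1 alternative. The cause was not tested. Alternatives gave the named genes the same call in 2901 of 2939 refits. Depth limits genes with few counts, and 3 kidney libraries limit every interval.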

Other observations

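Other gene families held members on both sides, read against the 30.0% of all tested genes called higher in liver and 28.5% higher in kidney. Of 33 tested ABC transporters, 16 were higher in liver and 8 in kidney, the kidney share being below that background. Of 41 tested mitochondrial carriers of the Slc25 family, 20 were higher in liver and 10 in kidney, again a kidney share below the background, and Slc25a47, a carrier known from hepatocytes, averaged 585 ± 261 CPM in liver and 0.269 ± 0.148 CPM in kidney, a difference of 11.05. Of 27 tested collagens, 13 were higher in kidney and 5 in liver. Col18a1, the source of endostatin, was on the liver side, with 247, 233, 264 and 504 CPM in liver and 34.97, 16.7 and 15.6 CPM in kidney, library 4 being the highest. Of 13 tested carboxylesterases, 9 were higher in liver and 1 in kidney, and Ces1f was within 2-fold, with 572, 549, 661 and 262 CPM in liver and 487, 427 and 496 CPM in kidney.

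Red cell genes did not part the organs as a group. Of 5 tested, 2 were higher in liver and 3 did not pass the test. Alas2, the haem synthesis enzyme of red cell precursors, was higher in liver by 5.72, with 143, 129.7, 114.4 and 134 CPM in liver and 2.16, 3.34 and 1.89 CPM in kidney.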
